A study of Mus musculus with 9 samples.

Results

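The splice junctions described here are the annotated introns of mouse endothelial cells that compete with another annotated intron for the same donor or acceptor site. Each library was deposited with a list of introns and of the reads that cross them. An intron entered if the aligner marked it as annotated, if the 9 libraries together held at least 50 uniquely mapped reads across it, and if it shared chromosome, strand and start or end with another such intron. This left 2490 of 293727 junctions. The members were chosen by their summed unique reads and their annotation, so the number of members and their depth are descriptions. Of the 95086 annotated junctions with 50 reads, 92596 shared no end with another one. The members met at 1414 shared ends in 839 named genes (1 end lay in no named gene), of which 756 were donor sites and 658 acceptor sites. At 1356 of these ends the choice was between 2 junctions and at 58 between 3, and 396 members belonged to an end on both of their sides. Near the threshold, 14 junctions sharing an end had exactly 50 reads, 22 had 51 and 14 had 52, while 17 had 49, 22 had 48 and 12 had 47.

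The cells were MS1, an established mouse endothelial line from pancreas, in 3 groups of 3 libraries. The control group carried the lentiviral backbone pCDH-puro, the TAZ4A group carried pCDH-TAZS4A, a form of the transcriptional coactivator TAZ in which serines that the Hippo kinases phosphorylate are alanines, and the TAZ-CAMTA1 group carried pCDH-TAZ-CAMTA1, the gene fusion of the vascular cancer epithelioid hemangioendothelioma. All 9 libraries therefore came from 1 transduced cell line, and the labels do not say whether the 3 samples of a group were separate cultures, so p-values measure the spread between these samples, which may be technical. Polyadenylated RNA was read on an Illumina instrument after a stranded library preparation. The question was which splicing choices differ between cells with either construct and control cells, and between the 2 constructs.

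In splicing, the spliceosome joins the donor site at the start of an intron to the acceptor site at its end. A cassette exon is one that is either spliced in or skipped, and skipping shows as a long junction that shares its donor with the upstream inclusion junction and its acceptor with the downstream one. Alternative first exons join to a common acceptor from different promoters, alternative last exons part from a common donor, and mutually exclusive exons replace each other. Endothelial cells are known for regulated cassette exons in adhesion and matrix genes, fibronectin and PECAM1 among them. For each shared end, a junction's share is its unique reads as a percentage of the unique reads of all member junctions at that end, and the inclusion of an exon is the share of the junction that joins it, so a shift of the gene's level alone leaves the share where it was.

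The exons below are 12 of those whose called differences are described further on, shown so that their length and reading frame can be seen beside the values. Each is printed 5′ to 3′ from the GENCODE vM21 transcript named with it (GRCm38, the build called mm10), with the variable exon in capitals and 10 bases of each neighbouring exon in lower case.
Fn1-201 exon 33, the EIIIA exon of fibronectin, chr1:71603660-71603929, minus strand, 270 bases: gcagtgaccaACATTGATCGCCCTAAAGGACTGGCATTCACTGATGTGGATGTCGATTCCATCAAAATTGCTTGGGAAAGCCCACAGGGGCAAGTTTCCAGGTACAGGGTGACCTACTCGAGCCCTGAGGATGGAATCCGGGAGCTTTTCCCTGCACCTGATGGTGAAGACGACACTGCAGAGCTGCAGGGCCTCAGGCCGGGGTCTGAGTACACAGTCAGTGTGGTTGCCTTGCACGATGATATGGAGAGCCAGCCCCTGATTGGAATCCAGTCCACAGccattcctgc
Aplp2-202 exon 13, chr9:31156190-31156225, minus strand, 36 bases: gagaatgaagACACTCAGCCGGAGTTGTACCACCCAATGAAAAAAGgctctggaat
Ppfibp1-202 exon 10, chr6:146999662-146999694, plus strand, 33 bases: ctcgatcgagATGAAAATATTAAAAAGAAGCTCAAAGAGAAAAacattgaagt
Dnm2-201 exon 14, chr9:21490658-21490669, plus strand, 12 bases: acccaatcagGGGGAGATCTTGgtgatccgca
Pecam1-201 exon 15, chr11:106671742-106671798, minus strand, 57 bases: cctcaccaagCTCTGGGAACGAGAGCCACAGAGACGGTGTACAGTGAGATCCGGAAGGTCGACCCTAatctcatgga
Os9-202 exon 13, chr10:127096915-127097079, minus strand, 165 bases: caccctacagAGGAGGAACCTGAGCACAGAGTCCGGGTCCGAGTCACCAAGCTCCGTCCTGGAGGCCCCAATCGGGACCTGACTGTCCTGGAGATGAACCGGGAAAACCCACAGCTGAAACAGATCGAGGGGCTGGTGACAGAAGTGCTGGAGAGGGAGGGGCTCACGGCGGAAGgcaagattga
Hdac7-201 exon 8, chr15:97808660-97808770, minus strand, 111 bases: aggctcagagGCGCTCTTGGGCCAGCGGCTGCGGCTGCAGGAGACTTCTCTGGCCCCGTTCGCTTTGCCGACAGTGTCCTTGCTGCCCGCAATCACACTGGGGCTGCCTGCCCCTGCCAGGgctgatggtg
Picalm-201 exon 13, chr7:90182219-90182368, plus strand, 150 bases: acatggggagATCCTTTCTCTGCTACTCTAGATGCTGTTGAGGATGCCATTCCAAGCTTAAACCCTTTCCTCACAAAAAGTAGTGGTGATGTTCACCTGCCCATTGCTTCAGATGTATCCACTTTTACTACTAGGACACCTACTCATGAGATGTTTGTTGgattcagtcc
H2afy-202 exon 6, chr13:56088252-56088342, minus strand, 91 bases: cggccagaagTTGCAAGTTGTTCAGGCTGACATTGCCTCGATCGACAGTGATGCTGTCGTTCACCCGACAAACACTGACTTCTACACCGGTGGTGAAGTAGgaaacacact
H2afy-201 exon 6, chr13:56089758-56089857, minus strand, 100 bases: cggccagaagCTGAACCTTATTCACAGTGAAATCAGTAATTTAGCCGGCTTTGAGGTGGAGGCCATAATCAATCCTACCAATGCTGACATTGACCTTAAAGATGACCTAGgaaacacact
U2af1-201 exon 3, chr17:31651646-31651712, minus strand, 67 bases: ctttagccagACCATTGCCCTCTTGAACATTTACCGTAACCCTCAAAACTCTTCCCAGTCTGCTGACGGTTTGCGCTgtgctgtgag
U2af1-202 exon 3, chr17:31652502-31652568, minus strand, 67 bases: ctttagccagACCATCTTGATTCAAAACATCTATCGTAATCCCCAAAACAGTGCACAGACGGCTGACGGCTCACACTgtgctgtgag
The first 8 are cassette exons in coding sequence, and all 8 lengths are multiples of 3, so that inclusion adds amino acids without shifting the frame. The H2afy and U2af1 pairs are exclusive exons, with the same flanking exons and a different stretch in the middle. The U2af1 exons have the same length, and 44 of their 67 positions (65.7%) hold the same base.

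The members as a whole were spliced at the usual sites. GT/AG borders were annotated for 2454 of them (98.6%), against 99.1% of the annotated junctions that share no end, and GC/AG borders for 32 (1.29%), against 0.741%. Their introns were longer, with a median of 2076 bases against 1201, and their reads fewer, with a median total of 230 (quartiles 108 and 578.5) against 331. By geometry, 769 of the 1414 ends were exon skipping, 269 a choice of acceptor site, 159 a choice of donor site, 60 alternative last exons and 52 alternative first exons, and 27 were skipping of several exons, 34 other exon choices and 43 not classified, with 1 end of undefined strand. The skipping ends held 450 distinct exons with a median length of 92 bases, of which 316 (70.2%) had a length divisible by 3, and of the 341 in coding sequence 277 (81.2%) did. Most ends had a leading junction: its share over all libraries had a median of 72.0% (quartiles 60.5 and 83.7%), 189 ends (13.4%) had a leading share of at least 90%, and 338 (23.9%) one under 60%.

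The libraries held 6410070 to 9889541 unique junction reads, and the members took 2.00 to 2.11% of them. TAZ-CAMTA1 replicate 2 stood apart: 30.6% of its junction reads mapped to several places, against 20.8 to 22.2% in the other 8, its median depth per shared end was 38 reads, against 49 to 79, and 12 shared ends had no read in it, against 0 ends in each other library. At a median end a share near 50% therefore has a 95% Wilson interval of 34.8 to 65.2% in that library and of 39.0 to 61.0% in TAZ4A replicate 1, for counting error only. At the 864 ends with at least 20 reads in every library, the share of the end's first junction by position was set against the mean of the group's other 2 libraries. It lay at least 20 points away at 24 ends for TAZ-CAMTA1 replicate 2, 26 for replicate 3 and 3 to 9 for the others. No 2 libraries were copies of each other. Endothelial markers were at 1 CPM (read counts scaled to the library's total) or more in every library for 12 of 13 genes, with Cldn5 at or near 0, while the leukocyte and pancreas markers measured were under 1 CPM. Summed fibroblast and pericyte markers were 4.97 to 5.52 CPM in control, 14.3 to 15.3 in TAZ4A and 8.73 to 14.5 in TAZ-CAMTA1 libraries, summed epithelial markers 19.4 to 22.7, 18.1 to 19.2 and 19.2 to 44.9 CPM, and summed endothelial markers 10657 to 10963, 7187 to 7414 and 9595 to 11944 CPM. The part of these differences in the splicing results was not tested.

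Shares were compared by edgeR's quasi-likelihood test of each junction against the others of its end, combined per end and adjusted by the Benjamini-Hochberg method over all 1414 ends. An end is called at an adjusted p under 0.05. Between TAZ4A and control 22 ends in 16 genes were called (1.56% of those tested), between TAZ-CAMTA1 and control 34 in 29 genes (2.4%), and between TAZ-CAMTA1 and TAZ4A 30 in 22 genes (2.12%). The called ends moved by a median of 14.9, 15.3 and 14.2 percentage points in the 3 comparisons, against 3.60, 4.19 and 3.99 points over all ends. Differences of at least 10 points were called at 15 (1.06%), 23 (1.63%) and 23 (1.63%) ends. Together 64 ends in 51 genes were called in at least 1 comparison, 20 of them in 2, and the first-exon choice of Egfl7 in all 3. The 3 comparisons share libraries pairwise, so a repeated call is not separate support. In the called ends of Cxcl12, Pdlim5 and Shisa5 a member had under 20 reads outside the group where it was highest. It passed the 50-read rule through that group, so these calls are given as descriptions.

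**Figure D1:**
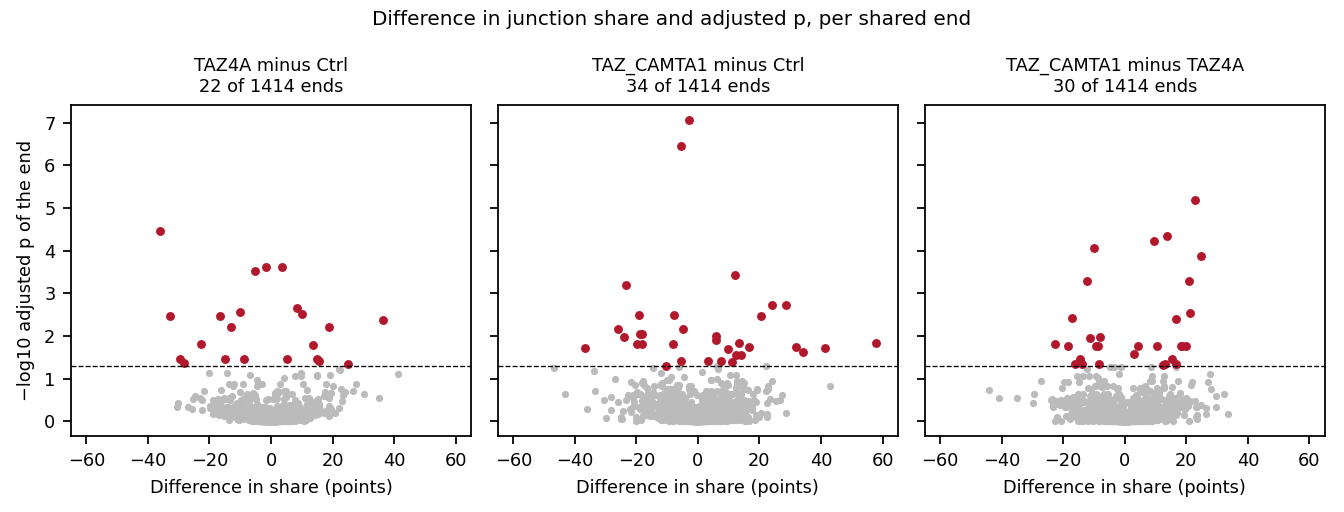
Difference in share (percentage points, horizontal) against the adjusted p of the end (vertical, log scale) for the junction of largest difference at each of the 1414 shared ends, in 3 panels for the 3 comparisons. Red points are called ends, 22, 34 and 30 from left to right, and most lie beyond 10 points to either side.

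Alternative first exons were called at 4, 6 and 4 of 52 ends (7.69, 11.5 and 7.69%) and exon skipping at 15, 24 and 20 of 769 ends (1.95, 3.12 and 2.60%). No test compared the types. Counted by exon, 9 skipped exons had a called end between TAZ4A and control, 6 of them more included in TAZ4A. Between TAZ-CAMTA1 and control 19 exons did, 15 of them more included in TAZ-CAMTA1, and between TAZ-CAMTA1 and TAZ4A 14 did, 10 more included in TAZ-CAMTA1. Geometry alone set these counts. It takes as skipped the exons of U2af1, one of an exclusive pair, and of Capg, one of several upstream noncoding exons, both less included in TAZ-CAMTA1 than in control. The lengths were multiples of 3 in 6 of 9, 11 of 19 and 12 of 14 exons. The group shares did not overlap at 22 of 22, 33 of 34 and 30 of 30 called ends, against 18.1, 18.8 and 19.1% of all ends, and the exception was the 36-base exon of Mbnl1.

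Cells with TAZ4A spliced more of the EIIIA exon into fibronectin (Fn1), the matrix glycoprotein that binds integrins. Read from the donor of the upstream exon, inclusion was 47.95, 47.2 and 45.7% in control libraries, 61.6, 62.7 and 66.1% in those of TAZ4A and 46.8, 44.4 and 49.5% in those of TAZ-CAMTA1. The TAZ4A libraries were all above the other 6, which overlapped each other. The means were 46.96% ± 1.16 (SD, n = 3) in control, 63.5% ± 2.34 (SD, n = 3) in TAZ4A and 46.9% ± 2.54 (SD, n = 3) in TAZ-CAMTA1 cells, from 144 to 474 reads per library at the end. TAZ4A exceeded control by 16.5 points (log2 odds 0.97 ± 0.19 SE, edgeR adjusted p = 0.00333), and TAZ-CAMTA1 minus TAZ4A was -16.5 points (log2 odds -0.95 ± 0.19 SE, edgeR adjusted p = 0.00399), while TAZ-CAMTA1 minus control was -0.0242 points (adjusted p = 0.981). Read from the acceptor side, which shares the skipping reads, the means were 36.1, 50.96 and 37.1% and the adjusted p-values 0.0341, 0.931 and 0.0450, for TAZ4A and then TAZ-CAMTA1 against control, and for the constructs against each other. Fibronectin's other extra domain exon, EIIIB (273 bases, chr1:71613763-71614035, minus strand), was included at 13.3, 11.5 and 8.97% in control libraries, 18.4, 17.1 and 15.6% in those of TAZ4A and 8.61, 7.32 and 10.04% in those of TAZ-CAMTA1. TAZ4A and TAZ-CAMTA1 did not overlap there (edgeR adjusted p = 0.0460), and TAZ4A against control gave 0.222. The EIIIB difference lost its call without Ctrl replicate 2 or 3, TAZ4A replicate 1, 2 or 3 or TAZ-CAMTA1 replicate 1, 2 or 3 (edgeR adjusted p from 0.0544 to 0.188). The EIIIA difference from control at the donor lost its call without TAZ4A replicate 3 (edgeR adjusted p = 0.0579). That between the constructs lost its call without TAZ4A replicate 3 (edgeR adjusted p = 0.0569). At the acceptor, the difference from control lost its call without Ctrl replicate 1, 2 or 3 or TAZ4A replicate 1 or 3 (edgeR adjusted p from 0.0691 to 0.256). There, the difference between the constructs lost its call without Ctrl replicate 2 or 3, TAZ4A replicate 1 or 3 or TAZ-CAMTA1 replicate 1 (edgeR adjusted p from 0.0555 to 0.327).

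Both constructs went with a shift between 2 last exons of Ap1s2, a small subunit of the AP-1 clathrin adaptor. The junction to the distal last exon (chrX:163932133-163933359, plus strand, mm10) took 85.1, 80.9 and 80.7% in control libraries, 50, 39.4 and 49.5% in those of TAZ4A and 53.03, 55 and 52.5% in those of TAZ-CAMTA1. All control libraries lay above all libraries with a construct, and the mean went from 82.2% ± 2.49 (SD, n = 3) to 46.3% ± 5.96 (SD, n = 3) with TAZ4A and 53.5% ± 1.32 (SD, n = 3) with TAZ-CAMTA1. TAZ4A minus control was -35.9 points (log2 odds -2.34 ± 0.32 SE, edgeR adjusted p = 3.41e-05) and TAZ-CAMTA1 minus control -28.7 points (log2 odds -1.96 ± 0.37 SE, edgeR adjusted p = 0.00189), from 20 to 114 reads per library. The TAZ4A difference was called under all 21 other settings tried. Those that change only the minimum difference in points reuse the main fit, so their call was fixed in advance. Between the 2 constructs the adjusted p was 0.717.

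Egfl7, a secreted protein of endothelial cells whose gene also holds a microRNA, switched between 2 noncoding first exons that join a common acceptor at chr2:26585584. The upstream exon (chr2:26581056-26581241, plus strand) took 65.6, 58.7 and 55.8% in control libraries, 46.8, 47.7 and 46.9% in those of TAZ4A and 66.1, 67.9 and 75.8% in those of TAZ-CAMTA1. TAZ4A lay below all other libraries, and TAZ-CAMTA1 above control, with 66.1% in the lowest TAZ-CAMTA1 and 65.6% in the highest control library. Means were 60.03% ± 5.05 (SD, n = 3), 47.2% ± 0.487 (SD, n = 3) and 69.9% ± 5.13 (SD, n = 3) in control, TAZ4A and TAZ-CAMTA1, at 850 to 1656 reads per library. TAZ4A minus control was -12.9 points (log2 odds -0.75 ± 0.15 SE, edgeR adjusted p = 0.00619), TAZ-CAMTA1 minus control 9.91 points (log2 odds 0.63 ± 0.15 SE, edgeR adjusted p = 0.02001) and TAZ-CAMTA1 minus TAZ4A 22.8 points (log2 odds 1.38 ± 0.15 SE, edgeR adjusted p = 6.55e-06). The first of these lost its call without TAZ4A replicate 1 or 3 (edgeR adjusted p from 0.0579 to 0.0808). The second of these lost its call without Ctrl replicate 2 or 3, TAZ4A replicate 1 or TAZ-CAMTA1 replicate 3 (edgeR adjusted p from 0.0509 to 0.143). The third was called whichever library was left out, with an adjusted p of 2.85e-09 without TAZ-CAMTA1 replicate 2.

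Coding exons of Aplp2, Ppfibp1 and Dnm2 were skipped more in TAZ4A cells than in control cells. The 36-base exon of Aplp2, a relative of the amyloid precursor protein, was included at 18.1, 22.7 and 21.2% in control libraries, 10.9, 9.87 and 10.7% in those of TAZ4A and 18.6, 18.7 and 20.1% in those of TAZ-CAMTA1. TAZ4A was below both other groups. TAZ4A minus control was -10.1 points (log2 odds -1.17 ± 0.23 SE, edgeR adjusted p = 0.00299) and TAZ-CAMTA1 minus TAZ4A was 8.63 points (log2 odds 1.01 ± 0.24 SE, edgeR adjusted p = 0.0173). At the acceptor the adjusted p-values were 0.0346 and 0.0533. The call against control there was lost without Ctrl replicate 1, 2 or 3 or TAZ4A replicate 1, 2 or 3 (edgeR adjusted p from 0.0691 to 0.205). The 33-base exon of Ppfibp1 (liprin beta 1, a scaffold at cell adhesions) was included at 95.5, 94.8 and 93.03% in control libraries, 87.6, 84.5 and 81.4% in those of TAZ4A and 91.6, 93.9 and 96.5% in those of TAZ-CAMTA1. Here too TAZ4A lay below all other libraries, with a difference of -9.94 points (log2 odds -1.57 ± 0.30 SE, edgeR adjusted p = 0.00271) against control and 9.49 points for TAZ-CAMTA1 minus TAZ4A (adjusted p = 0.0173). The 12-base exon of Dnm2, the dynamin GTPase of membrane fission, was included at 50.7, 57.7 and 46.7% in control libraries, 31.9, 41.2 and 35.3% in those of TAZ4A and 35.1, 47.1 and 45.3% in those of TAZ-CAMTA1. Control and TAZ4A did not overlap, with a difference of -15.6 points (log2 odds -0.92 ± 0.24 SE, edgeR adjusted p = 0.0378), and the TAZ-CAMTA1 libraries overlapped both. The Aplp2 difference between the constructs lost its call without TAZ4A replicate 1, 2 or 3 or TAZ-CAMTA1 replicate 3 (edgeR adjusted p from 0.0667 to 0.105). Ppfibp1 against control lost its call without TAZ4A replicate 3 (edgeR adjusted p = 0.0549). Between the constructs it lost its call without TAZ4A replicate 2 or 3 or TAZ-CAMTA1 replicate 3 (edgeR adjusted p from 0.0586 to 0.153). Dnm2 lost its call without Ctrl replicate 1 or 2 or TAZ4A replicate 1 or 3 (edgeR adjusted p from 0.0904 to 0.279).

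Other ends called between TAZ4A and control moved in both directions. Vrk1, a nuclear serine/threonine kinase, had more of a 60-base coding exon (chr12:106073619-106073678, plus strand), with inclusion from the donor of 13.7, 15.6 and 11.1% in control libraries, 27.8, 28.6 and 25% in those of TAZ4A and 25.5, 24.7 and 27.7% in those of TAZ-CAMTA1. Both constructs lay above control, by 13.7 points (log2 odds 1.25 ± 0.29 SE, edgeR adjusted p = 0.0161) and 12.5 points (log2 odds 1.14 ± 0.29 SE, edgeR adjusted p = 0.0272). Its acceptor was called in neither comparison (10.1 points, adjusted p = 0.2005, and 7.22 points, adjusted p = 0.438). Rps24, a protein of the small ribosomal subunit, had the skipped exon with the smallest adjusted p in each comparison with control, and is named after its values were seen. Its 20-base exon (chr14:24495430-24495449, plus strand), annotated outside the coding sequence, was included from the donor at 7.75, 7.10 and 7.54% in control libraries, 10.6, 10.7 and 11.6% in those of TAZ4A and 11.6, 12.1 and 14.2% in those of TAZ-CAMTA1, with 2631 to 12282 reads per library. Both constructs lay above control without overlap, by 3.48 points (log2 odds 0.61 ± 0.09 SE, edgeR adjusted p = 0.000243) for TAZ4A and 5.18 points (log2 odds 0.84 ± 0.09 SE, edgeR adjusted p = 3.55e-07) for TAZ-CAMTA1, and each was called whichever library was left out. DESeq2 did not call the TAZ4A difference. In Evl, an Ena/VASP protein of actin filaments, the junction from the exon ending at chr12:108683261 took 53.1, 60.5 and 45.6% in control libraries, 21.1, 34.8 and 14.3% in those of TAZ4A and 50, 27.7 and 41.7% in those of TAZ-CAMTA1, lower in every TAZ4A library than in any control library. The difference was -29.7 points (log2 odds -1.80 ± 0.46 SE, edgeR adjusted p = 0.0346). The other junction at this acceptor leaves a 63-base coding exon of Evl-201 (chr12:108683348-108683410), which the first junction passes over. The share lost by the first junction in TAZ4A was therefore gained by the junction from that exon. The tetraspanin Cd151, a partner of integrins, had a junction from one upstream noncoding exon (chr7:141468419-141468546, plus strand) at 86.1, 92.7 and 92.2% in control libraries, 94.4, 95.5 and 96.8% in those of TAZ4A and 96.2, 95.3 and 92.7% in those of TAZ-CAMTA1, with a difference of 5.27 points (log2 odds 1.18 ± 0.30 SE, edgeR adjusted p = 0.0355). Vrk1 in TAZ4A lost its call without Ctrl replicate 1 or 3 or TAZ4A replicate 1, 2 or 3 (edgeR adjusted p from 0.0528 to 0.119). Vrk1 in TAZ-CAMTA1 lost its call without Ctrl replicate 1, 2 or 3 or TAZ-CAMTA1 replicate 1, 2 or 3 (edgeR adjusted p from 0.0553 to 0.159). Evl lost its call without Ctrl replicate 1 or 2 or TAZ4A replicate 1 or 3 (edgeR adjusted p from 0.0967 to 0.260). Cd151 lost its call without Ctrl replicate 1 or TAZ4A replicate 1, 2 or 3 (edgeR adjusted p from 0.0578 to 0.332).

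Of the 22 ends called between TAZ4A and control, the count was 5 without TAZ4A replicate 3, 11 without TAZ4A replicate 1 and 13 without Ctrl replicate 1, and DESeq2 called 10. edgeR's diffSpliceDGE, which compares a junction's fold change with that of its end, called 2, with 70 of 1414 ends (4.95%) at an unadjusted p under 0.05. At that threshold a share of 0.05 of the tested ends is expected if no end differs.

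**Figure D2:**
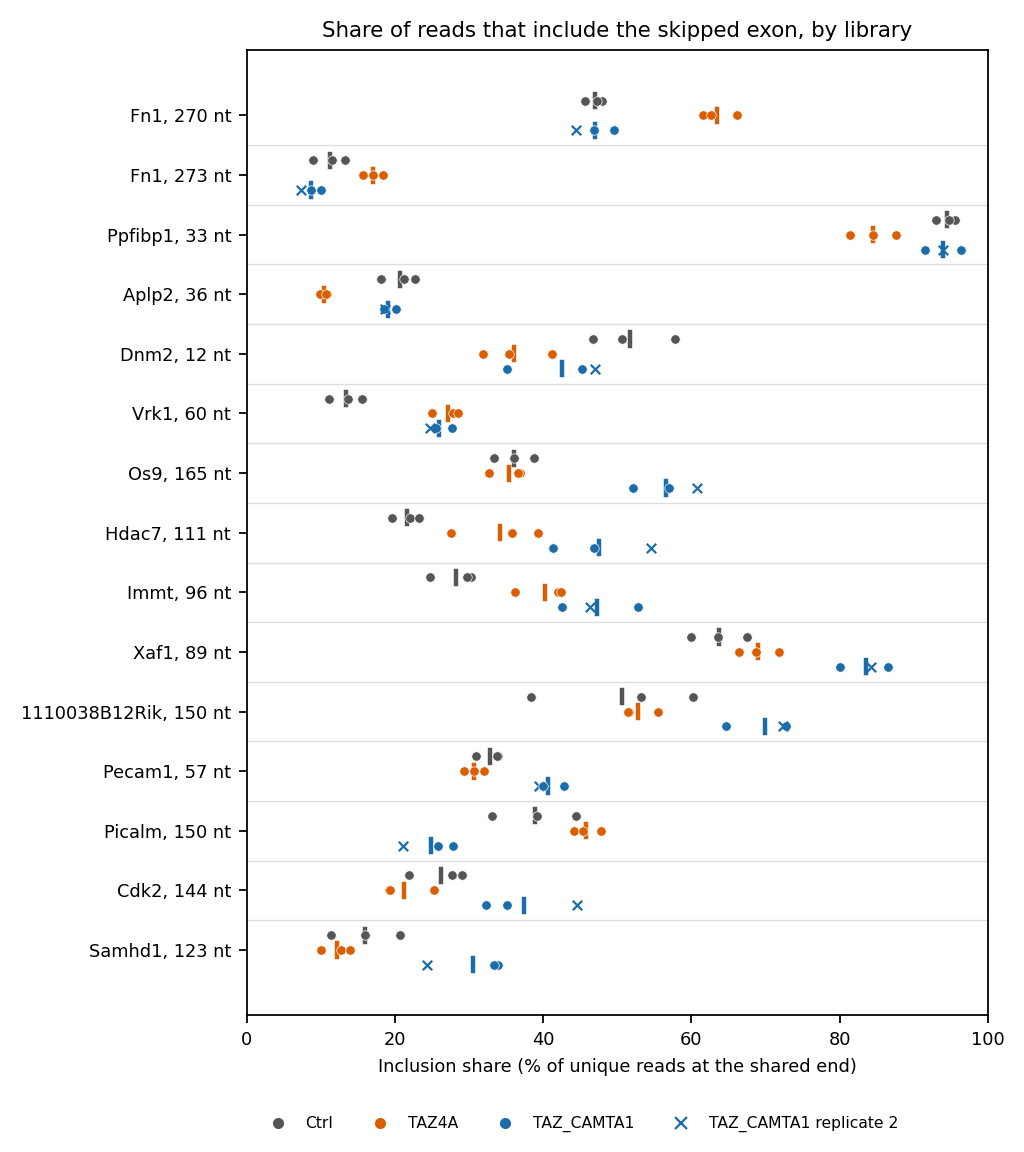
Inclusion (percent, horizontal axis) of 15 skipped exons in each of the 9 libraries, by group, with vertical bars at group means and crosses for TAZ-CAMTA1 replicate 2. Fn1 EIIIA is higher in the 3 TAZ4A libraries (61.6 to 66.1%) than in any other, and the Os9, Pecam1 and Hdac7 exons are highest in TAZ-CAMTA1.

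TAZ-CAMTA1 cells spliced more of a 57-base exon into Pecam1 (CD31), the adhesion receptor of endothelial junctions, in the part that encodes its cytoplasmic tail. The exon was deeply read, with 1982 to 3684 reads per library. Inclusion from the donor was 30.9, 33.9 and 33.8% in control libraries, 31.99, 29.3 and 30.7% in those of TAZ4A and 42.8, 39.4 and 39.9% in those of TAZ-CAMTA1. Every TAZ-CAMTA1 library was above the other 6, and the difference was 7.84 points (log2 odds 0.49 ± 0.10 SE, edgeR adjusted p = 0.00328) against control and 10.1 points (log2 odds 0.64 ± 0.10 SE, edgeR adjusted p = 8.70e-05) against TAZ4A. TAZ4A minus control was -2.21 points (adjusted p = 0.628). From the acceptor the same exon gave 5.36 points (adjusted p = 0.0384) and 9.57 points (adjusted p = 6.07e-05) for the 2 comparisons. The acceptor end against control lost its call without Ctrl replicate 1, 2 or 3, TAZ4A replicate 1, 2 or 3 or TAZ-CAMTA1 replicate 1 or 3 (edgeR adjusted p from 0.0583 to 0.166). Unannotated junctions held 7.58% of the reads at the donor and 16.0% at the acceptor and are not part of these shares.

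Large inclusion gains in TAZ-CAMTA1 cells fell on coding cassette exons of Os9, Hdac7 and Immt. Os9, a lectin of protein quality control in the endoplasmic reticulum, included its 165-base exon at 36.05, 38.8 and 33.3% in control libraries, 32.7, 36.9 and 36.6% in those of TAZ4A and 52.2, 60.8 and 56.9% in those of TAZ-CAMTA1. All TAZ-CAMTA1 libraries lay above the other 6, with 20.6 points (log2 odds 1.20 ± 0.24 SE, edgeR adjusted p = 0.00346) against control and 21.2 points (log2 odds 1.23 ± 0.24 SE, edgeR adjusted p = 0.00284) against TAZ4A. Hdac7, a class IIa histone deacetylase of endothelial cells, included its 111-base exon, read from the donor, at 19.6, 22.1 and 23.2% in control libraries, 27.5, 39.2 and 35.8% in those of TAZ4A and 41.3, 54.5 and 46.9% in those of TAZ-CAMTA1. The groups lay in the order control, TAZ4A and TAZ-CAMTA1 without overlap, and TAZ-CAMTA1 minus control was 25.9 points (log2 odds 1.62 ± 0.34 SE, edgeR adjusted p = 0.00703), while TAZ4A minus control (12.6 points, adjusted p = 0.260) was not called. At its acceptor inclusion was 7.50, 11.8 and 19.1% in control libraries, 27.5, 23.8 and 24.6% in those of TAZ4A and 37.2, 33.3 and 12.8% in those of TAZ-CAMTA1, where TAZ-CAMTA1 replicate 3 lay within the control range, and TAZ-CAMTA1 minus control was not called (14.96 points, adjusted p = 0.128). Immt, the mitofilin of the inner mitochondrial membrane, included its 96-base exon (chr6:71853173-71853268, plus strand), read from the acceptor, at 24.8, 30.3 and 29.7% in control libraries, 36.2, 42.1 and 42.4% in those of TAZ4A and 52.8, 46.3 and 42.5% in those of TAZ-CAMTA1, with 18.98 points (log2 odds 1.18 ± 0.26 SE, edgeR adjusted p = 0.00892) against control. The nearest TAZ4A and TAZ-CAMTA1 libraries, at 42.4 and 42.5%, nearly met there, and TAZ4A minus control gave 11.98 points (adjusted p = 0.136). Immt lost its call without TAZ-CAMTA1 replicate 1 (edgeR adjusted p = 0.0698). At its donor the TAZ-CAMTA1 libraries spread from 26.7 to 49%, overlapping control, and the adjusted p was 0.363.

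Other junctions rose with TAZ-CAMTA1. Rtn4 (Nogo), a protein that shapes the endoplasmic reticulum, joined its 2361-base coding exon (chr11:29706410-29708770, plus strand) to the common acceptor in 50, 59.8 and 58.9% in control libraries, 66.03, 70.1 and 67.6% in those of TAZ4A and 80.8, 84.1 and 75.8% in those of TAZ-CAMTA1. TAZ-CAMTA1 lay above all others, by 23.99 points (log2 odds 1.60 ± 0.28 SE, edgeR adjusted p = 0.00183) against control. Xaf1, an interferon-induced partner of the apoptosis inhibitor XIAP, included an 89-base exon at 67.6, 63.6 and 60% in control libraries, 68.8, 66.5 and 71.9% in those of TAZ4A and 80, 84.2 and 86.5% in those of TAZ-CAMTA1, and TAZ-CAMTA1 minus control was 19.8 points (log2 odds 1.53 ± 0.36 SE, edgeR adjusted p = 0.0151). The noncoding RNA gene 1110038B12Rik included a 150-base exon at 38.4, 53.3 and 60.2% in control libraries, 51.6, 55.5 and 51.4% in those of TAZ4A and 72.8, 72.3 and 64.7% in those of TAZ-CAMTA1, with 19.3 points (log2 odds 1.15 ± 0.22 SE, edgeR adjusted p = 0.00328). Carm1, an arginine methyltransferase of histones and splicing factors, joined the acceptor of its internal 69-base exon rather than a last exon in 67.2, 66.3 and 70.6% in control libraries, 69.4, 80 and 75.8% in those of TAZ4A and 84.4, 86.4 and 82.9% in those of TAZ-CAMTA1, a difference of 16.5 points (log2 odds 1.36 ± 0.34 SE, edgeR adjusted p = 0.0184). Xaf1 lost its call without Ctrl replicate 2 or 3 (edgeR adjusted p from 0.0603 to 0.104). Carm1 lost its call without Ctrl replicate 1 or 2 or TAZ-CAMTA1 replicate 1 or 2 (edgeR adjusted p from 0.0532 to 0.0946).

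Promoter-linked choices shifted in TAZ-CAMTA1 cells too. In Acot7, an acyl-CoA thioesterase, the upstream first exon (chr4:152178134-152178340, plus strand) took 20, 22.97 and 25.5% in control libraries, 15.7, 18.6 and 16.9% in those of TAZ4A and 9.41, 4.82 and 0% in those of TAZ-CAMTA1. The 0 rests on 53 reads at that end, which allows a share of up to 5.66%. TAZ-CAMTA1 was below control in all libraries, with a difference of -18.1 points (log2 odds -2.36 ± 0.52 SE, edgeR adjusted p = 0.00892). Capg, a capping protein of actin filaments, has 3 noncoding exons that join a common acceptor, and the one ending at chr6:72549868 took 52.01, 53.1 and 56.7% in control libraries, 44.6, 41.6 and 46.6% in those of TAZ4A and 39.6, 21.4 and 30.96% in those of TAZ-CAMTA1. Its share was lowest in TAZ-CAMTA1, with -23.3 points (log2 odds -1.44 ± 0.23 SE, edgeR adjusted p = 0.000643) against control, and the TAZ-CAMTA1 libraries spread over more points than those of the other groups. Tpm1, a tropomyosin of actin filaments, joined the exon of its longer forms (chr9:67047786-67047911, minus strand) in 95.9, 92.3 and 86% in control libraries, 95.9, 97.3 and 94.9% in those of TAZ4A and 97.6, 96.3 and 98.4% in those of TAZ-CAMTA1. Its difference was 6.004 points (log2 odds 1.92 ± 0.44 SE, edgeR adjusted p = 0.0124). Tpm1 lost its call without Ctrl replicate 3 (edgeR adjusted p = 0.238).

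Among the splicing factors themselves, U2af1 and Hnrnpa2b1 were called between TAZ-CAMTA1 and control. U2af1 encodes the small subunit of the factor that recognises acceptor sites, and it holds the exclusive 67-base exons printed above. Measured at the downstream end, U2af1-201 exon 3 took 88.9, 88.8 and 90.9% in control libraries, 85.1, 85.7 and 87.2% in those of TAZ4A and 76.97, 84.2 and 82.8% in those of TAZ-CAMTA1. Both TAZ-CAMTA1 and TAZ4A libraries were below the control libraries, and TAZ-CAMTA1 minus control was -8.22 points (log2 odds -0.98 ± 0.24 SE, edgeR adjusted p = 0.0151). The upstream end of the same pair gave an adjusted p of 0.0597, and TAZ4A minus control one of 0.454. Hnrnpa2b1, an RNA-binding protein of the hnRNP family, included a 136-base exon that is not coding (chr6:51461920-51462055, minus strand), read from the acceptor, at 9.30, 8.34 and 7.88% in control libraries, 10.9, 10.9 and 10.4% in those of TAZ4A and 12.2, 13.9 and 17.1% in those of TAZ-CAMTA1, with 5.88 points (log2 odds 0.84 ± 0.19 SE, edgeR adjusted p = 0.0102) against control. At its donor the groups overlapped and the difference was 1.32 points (adjusted p = 0.676). U2af1 lost its call without Ctrl replicate 2 or 3 or TAZ-CAMTA1 replicate 1 (edgeR adjusted p from 0.0593 to 0.134). Hnrnpa2b1 lost its call without Ctrl replicate 2 or 3 (edgeR adjusted p from 0.0593 to 0.0874). Counting multiply mapped reads as well also ended the U2af1 call.

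Of the 34 ends called between TAZ-CAMTA1 and control, 30 were among the 38 (2.69%) called without TAZ-CAMTA1 replicate 2, and the count was 15 without Ctrl replicate 3 and 17 without Ctrl replicate 2. DESeq2 called 11 and limma on logit shares 31, and edgeR's diffSpliceDGE called 0, with 95 ends (6.72%) at an unadjusted p under 0.05.

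**Figure D3:**
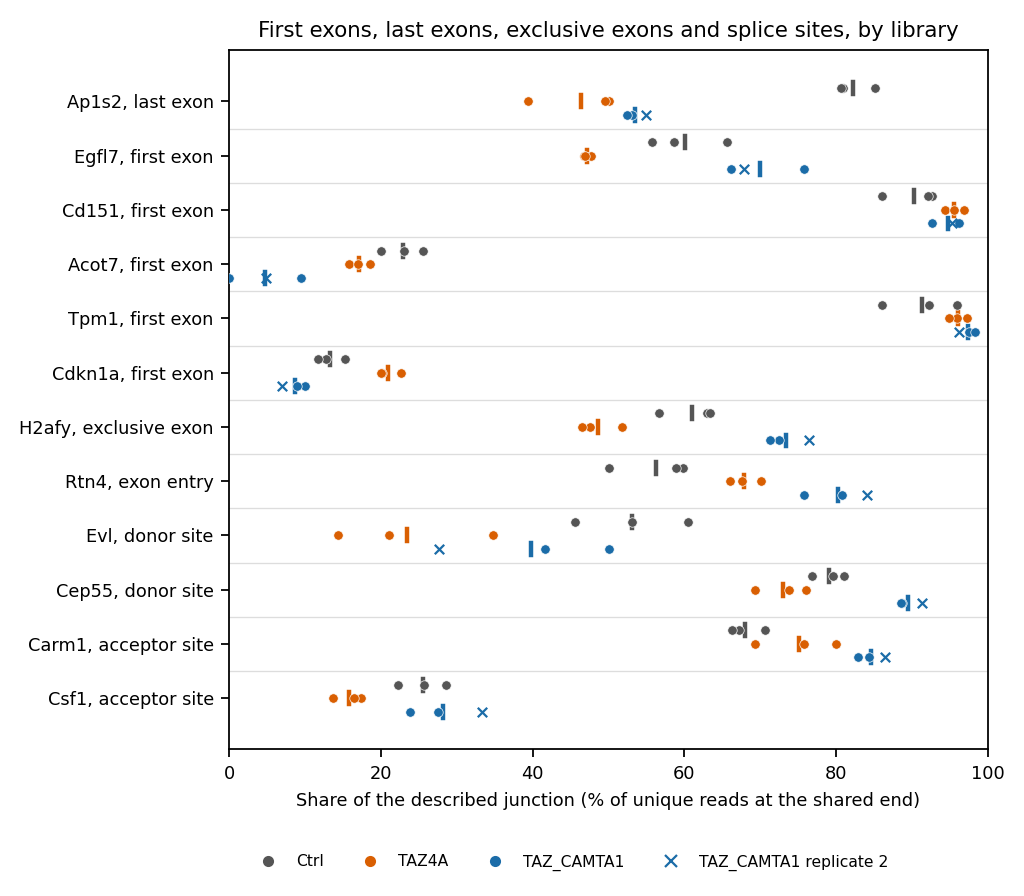
Share (percent, horizontal axis) of the named junction at 12 choices of first exon, last exon, exclusive exon or splice site in each library, by group, with vertical bars at group means and crosses for TAZ-CAMTA1 replicate 2. Ap1s2 separates control (80.7 to 85.1%) from both constructs, and Egfl7 puts TAZ4A (46.8 to 47.7%) below the rest. The Evl row, labelled donor site, shows the junction that passes over the 63-base exon of Evl-201.

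The 2 constructs differed most, among the called ends, in H2afy, the gene of the histone variant macroH2A1, whose exclusive exons make macroH2A1 isoforms that differ in the ligand pocket of the macro domain. The junction from the 91-base exon (H2afy-202 exon 6) to the downstream exon took 63.01, 63.4 and 56.7% in control libraries, 47.6, 46.5 and 51.7% in those of TAZ4A and 72.4, 76.4 and 71.2% in those of TAZ-CAMTA1. TAZ4A was lowest, control intermediate and TAZ-CAMTA1 highest, with no overlap between any 2 groups. TAZ-CAMTA1 minus TAZ4A was 24.7 points (log2 odds 1.56 ± 0.25 SE, edgeR adjusted p = 0.000132), while against control TAZ4A gave -12.4 points (adjusted p = 0.152) and TAZ-CAMTA1 12.3 points (adjusted p = 0.0816). At the upstream end of the same exons, read by other junctions, the shares were 56.5, 41.8 and 52.1% in control libraries, 44.8, 43.5 and 43.2% in those of TAZ4A and 56.1, 47.9 and 51.9% in those of TAZ-CAMTA1, and TAZ-CAMTA1 minus TAZ4A there was 8.09 points (log2 odds 0.46 ± 0.32 SE, edgeR adjusted p = 0.598). That end was not called, and its groups overlapped.

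Picalm, a clathrin assembly protein, included its 150-base exon less in TAZ-CAMTA1 cells. Inclusion from the acceptor was 33.2, 39.1 and 44.5% in control libraries, 44.2, 47.8 and 45.4% in those of TAZ4A and 25.8, 21.1 and 27.9% in those of TAZ-CAMTA1. TAZ-CAMTA1 lay below all other libraries, with differences of -20.9 points (log2 odds -1.28 ± 0.22 SE, edgeR adjusted p = 0.000527) against TAZ4A and -14.01 points (log2 odds -0.88 ± 0.23 SE, edgeR adjusted p = 0.0280) against control. From the donor, TAZ-CAMTA1 replicate 3 was at 38.9% and overlapped the other groups, and the adjusted p-values were 0.118 and 0.677. Samhd1, a nucleotide triphosphohydrolase of antiviral defence, included a 123-base exon (chr2:157101321-157101443, minus strand) at 20.6, 16 and 11.4% in control libraries, 12.7, 13.95 and 10% in those of TAZ4A and 33.9, 24.3 and 33.3% in those of TAZ-CAMTA1, and TAZ-CAMTA1 was higher than TAZ4A in every library, by 18.3 points (log2 odds 1.62 ± 0.39 SE, edgeR adjusted p = 0.0173). The donor end of Xaf1 that leads to the third exon moved by 19.9 points (edgeR adjusted p = 0.0173), with 17.1% of the reads at that end on unannotated junctions. Picalm against control lost its call without Ctrl replicate 2 or 3, TAZ4A replicate 3 or TAZ-CAMTA1 replicate 1 (edgeR adjusted p from 0.0542 to 0.185). Samhd1 lost its call without TAZ4A replicate 1 or 3 or TAZ-CAMTA1 replicate 1 or 3 (edgeR adjusted p from 0.0552 to 0.0987). Xaf1 lost its call without TAZ4A replicate 1, 2 or 3 or TAZ-CAMTA1 replicate 3 (edgeR adjusted p from 0.0522 to 0.112). For 1110038B12Rik the difference was 17.1 points (log2 odds 1.10 ± 0.21 SE, edgeR adjusted p = 0.00370). The 1110038B12Rik differences given were read from the donor. There, that between the constructs lost its call without TAZ4A replicate 1 or 3 (edgeR adjusted p from 0.0510 to 0.0513). At the acceptor of this exon TAZ-CAMTA1 differed by 11.9 points from control (edgeR adjusted p = 0.000363). From TAZ4A it differed there by 13.6 points (edgeR adjusted p = 4.43e-05).

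Cell cycle genes were called between the 2 constructs at a first exon of Cdkn1a and a cassette exon of Cdk2. Cdkn1a encodes p21, the inhibitor of cyclin-dependent kinases, and its upstream noncoding first exon (chr17:29090979-29091101, plus strand) took 12.7, 15.3 and 11.7% in control libraries, 20.1, 19.9 and 22.7% in those of TAZ4A and 9.91, 6.96 and 8.93% in those of TAZ-CAMTA1. TAZ4A was highest, control intermediate and TAZ-CAMTA1 lowest without overlap, and TAZ-CAMTA1 minus TAZ4A was -12.3 points (log2 odds -1.44 ± 0.25 SE, edgeR adjusted p = 0.000512). Cdk2 included a 144-base coding exon (chr10:128699976-128700119, minus strand) at 27.7, 29.03 and 21.9% in control libraries, 19.1, 19.3 and 25.2% in those of TAZ4A and 32.4, 44.6 and 35.1% in those of TAZ-CAMTA1, a difference of 16.1 points (log2 odds 1.11 ± 0.30 SE, edgeR adjusted p = 0.0450) at the donor, while the acceptor gave an adjusted p of 0.150. Csf1, the macrophage colony-stimulating factor, used the acceptor of its shorter sixth exon in 28.6, 25.6 and 22.2% in control libraries, 17.4, 16.4 and 13.7% in those of TAZ4A and 23.8, 33.3 and 27.5% in those of TAZ-CAMTA1, a difference of 12.4 points (log2 odds 1.01 ± 0.28 SE, edgeR adjusted p = 0.0479). Cep55, a protein of the cytokinetic bridge, used one of 2 neighbouring donor sites in 79.5, 76.8 and 81.01% in control libraries, 76, 73.8 and 69.3% in those of TAZ4A and 88.7, 91.3 and 88.6% in those of TAZ-CAMTA1, a difference of 16.5 points (log2 odds 1.58 ± 0.43 SE, edgeR adjusted p = 0.0460), with 21.8% of the reads at that end unannotated. Cdk2 lost its call without Ctrl replicate 2 or 3, TAZ4A replicate 1, 2 or 3 or TAZ-CAMTA1 replicate 2 or 3 (edgeR adjusted p from 0.0512 to 0.196). Csf1 lost its call without Ctrl replicate 2 or 3, TAZ4A replicate 1, 2 or 3 or TAZ-CAMTA1 replicate 2 or 3 (edgeR adjusted p from 0.0573 to 0.199). Cep55 lost its call without Ctrl replicate 2 or 3, TAZ4A replicate 1, 2 or 3 or TAZ-CAMTA1 replicate 1, 2 or 3 (edgeR adjusted p from 0.0555 to 0.166).

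Of the 30 ends called between TAZ-CAMTA1 and TAZ4A, 22 (1.56%) were called without TAZ-CAMTA1 replicate 2, and all 22 were among the 30. The count was 9 without TAZ4A replicate 3, 16 without TAZ4A replicate 2, 18 without TAZ4A replicate 1 and 19 without TAZ-CAMTA1 replicate 3. DESeq2 called 9 and limma on logit shares 19, and edgeR's diffSpliceDGE called 0, with 90 ends (6.36%) at an unadjusted p under 0.05.

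Where both sides of a skipped exon were shared ends, the sides could be set beside each other. This was so for 317 exons. The differences at donor and acceptor had the same sign for 9 of 9, 13 of 13 and 12 of 12 exons with a called end in the 3 comparisons, and for 235, 257 and 239 of all 317. Both sides were called for 6, 5 and 6 exons. The 2 sides share the reads of the skipping junction, so they are not independent measurements.

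**Figure D4:**
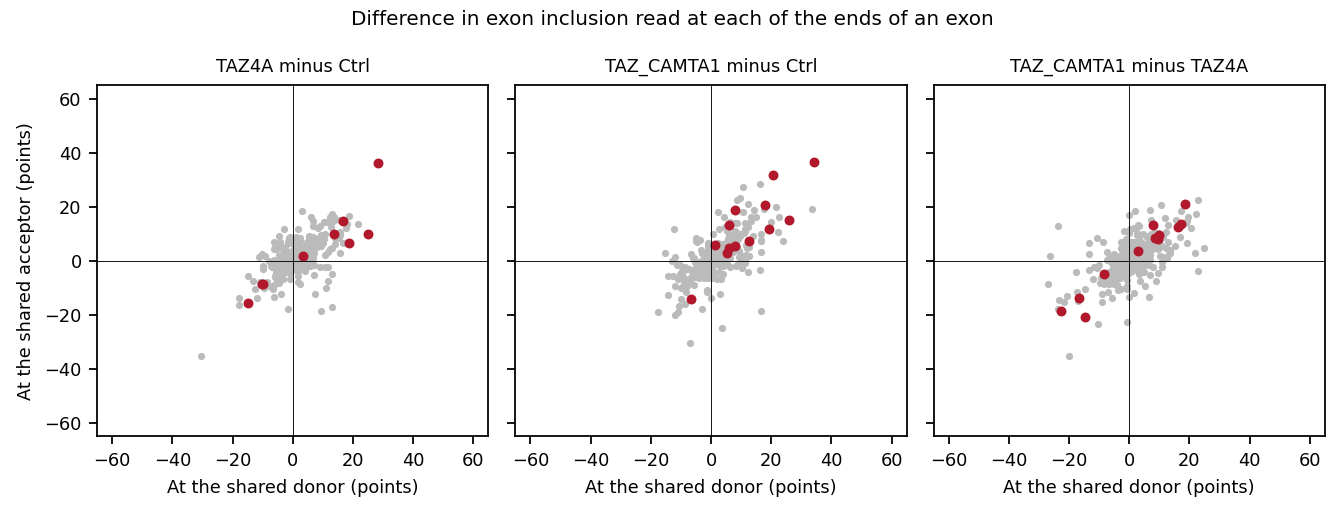
Difference in inclusion (percentage points) at the acceptor end against that at the donor end for 317 exons read at both ends, in 3 panels for the 3 comparisons. Exons with a called end are red (9, 13 and 12) and lie in the quadrants where both differences have the same sign.

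Leaving out TAZ-CAMTA1 replicate 2 kept the sign of all 22, 34 and 30 called ends, but this could hardly have come out otherwise. For TAZ4A against control no compared library was left out. In the other comparisons 33 of 34 and 30 of 30 called ends had groups without overlap. There, leaving out 1 library cannot reverse the sign, so only Mbnl1 could have changed. Of the ends called with all 9 libraries, 22, 30 and 22 were also called without it. TAZ4A against control went from 22 to 31 calls (2.19%) although neither group had lost a library, in a fit where all groups share 1 estimate of the spread. Among the ends named above, those of Carm1 and Vrk1 against control and of Cdk2, Csf1, Cep55 and Fn1 EIIIB between the constructs were no longer called.

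**Figure D5:**
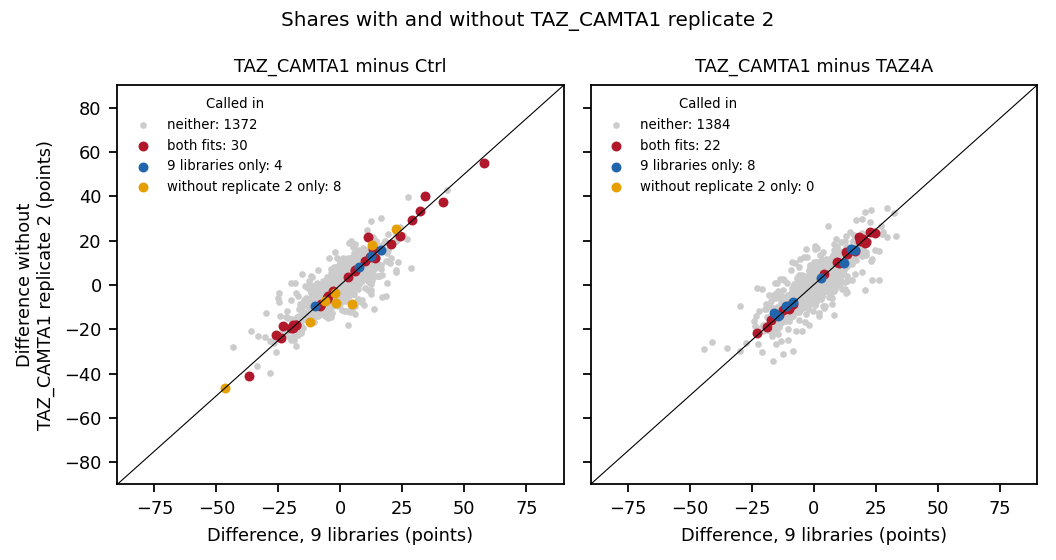
Difference in share (percentage points) without TAZ-CAMTA1 replicate 2 against the difference with all 9 libraries, for the 1414 ends, in 2 panels for TAZ-CAMTA1 against control and against TAZ4A. Red points are ends called in both fits (30 and 22), blue points ends called with all 9 libraries only. Orange points are ends called without replicate 2 only. The 34 and 30 ends called with all libraries, red and blue, keep their sign in both panels. For all but Mbnl1 this was fixed in advance, because their groups do not overlap.

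Genes of the Hippo pathway, the kinase cascade that restrains TAZ and its relative YAP, had 15 shared ends in 7 genes of a list of 41. Called were 1, 1 and 0 of them in the 3 comparisons, against 1.56, 2.4 and 2.12% of all ends, and the third comparison had 2 at an unadjusted p under 0.05 with 0 called by DESeq2 or limma. The called end was in Rassf1, a scaffold of the pathway's kinases, named here after its values were seen. Of its 2 first exons, the one joined by chr9:107554245-107557452 (plus strand) took 31.2, 33.3 and 28.3% in control libraries, 13.8, 8.33 and 2.08% in those of TAZ4A and 10.4, 6.25 and 3.70% in those of TAZ-CAMTA1. Control lay apart from both constructs, with -22.9 points (log2 odds -2.25 ± 0.52 SE, edgeR adjusted p = 0.0156) for TAZ4A and -24.2 points (log2 odds -2.32 ± 0.53 SE, edgeR adjusted p = 0.0103) for TAZ-CAMTA1 against control. In some library this end held under 20 reads, so the naming rule did not take it, and its lowest shares rest on few reads. Rassf1 in TAZ4A lost its call without Ctrl replicate 2 or TAZ4A replicate 2 or 3 (edgeR adjusted p from 0.0504 to 0.117). Rassf1 in TAZ-CAMTA1 lost its call without Ctrl replicate 2 (edgeR adjusted p = 0.0696). Yap1's 48-base exon, which lengthens the transactivation domain, was included at its donor end in 39.2, 38.5 and 52.2% in control libraries, 38.6, 37.96 and 39.3% in those of TAZ4A and 44.5, 42.9 and 43.1% in those of TAZ-CAMTA1. Control overlapped both constructs, and TAZ-CAMTA1 lay above TAZ4A without overlap, as groups did at 19.1% of all ends in that comparison. None of the 3 comparisons was called at either side (edgeR adjusted p from 0.641 to 0.998). Tead1, a DNA-binding partner of TAZ, had 2 shared ends with 2 to 38 reads per library and adjusted p from 0.186 to 0.853, and none was called. Wwtr1, which encodes TAZ, Camta1 and Tead2 to Tead4 had no shared end.

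The other lists were read in the same way, each count given first for TAZ4A and then for TAZ-CAMTA1 against control, and last for TAZ-CAMTA1 minus TAZ4A. Genes of the actin cytoskeleton and adhesion had 5, 1 and 2 of 60 ends called, in Dnm2, Pdlim5 and Ppfibp1, then in Tpm1, then in Ppfibp1, against 3, 0 and 0 by DESeq2 and 3, 1 and 2 by limma. The Pdlim5 call is one that the read rule builds in. Extracellular matrix genes had 2, 0 and 3 of 9, all in Fn1, with 1, 0 and 1 by each of the other tools, and in the second comparison 0 ends were at an unadjusted p under 0.05 and DESeq2 and limma also called 0. Endothelial genes had 0, 2 and 3 of 19, in Pecam1 and then in Pecam1 and Cxcl12, the latter again built in by the read rule, with 0, 0 and 2 by DESeq2 and 0, 2 and 2 by limma. In the first comparison 1 end was at an unadjusted p under 0.05 with 0 by DESeq2 and limma. Cell cycle genes had 0, 0 and 2 of 23 (1 of the 2 by DESeq2 and 1 by limma), with 3 and 8 at an unadjusted p under 0.05 in the first 2 comparisons and 0 by DESeq2 and limma. Interferon and inflammatory genes had 0, 0 and 1 of 16, in Csf1 and not called by DESeq2 or limma, with 1 and 0 at an unadjusted p under 0.05 in the first 2 and 0 by DESeq2 and limma.

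Splicing regulators had 2, 4 and 0 of 40 shared ends called, in 17 genes of a list of 62, against 1, 0 and 0 by DESeq2 and 1, 3 and 0 by limma. The calls were in Clk1, then in Clk1, U2af1, Hnrnpa2b1 and Mbnl1, and in the third comparison 8 ends were at an unadjusted p under 0.05 with 0 called by DESeq2 or limma. Clk1, a kinase of the SR splicing factors, and Mbnl1, a muscleblind RNA-binding protein, are named after their values were seen. Clk1's 91-base exon, read from the acceptor, was included at 33.3, 66.7 and 58.8% in control libraries, 86.7, 90.9 and 90.2% in those of TAZ4A and 88.2, 82.4 and 84% in those of TAZ-CAMTA1. Control was lowest and spread widely, at 12 to 51 reads per library, and the constructs exceeded it by 36.3 points (log2 odds 2.68 ± 0.55 SE, edgeR adjusted p = 0.00416) and 31.9 points (log2 odds 2.11 ± 0.52 SE, edgeR adjusted p = 0.0184). At the donor of Clk1, TAZ4A minus control was 28.2 points (edgeR adjusted p = 0.0439). TAZ-CAMTA1 overlapped control there, and its difference of 20.5 points was not called (edgeR adjusted p = 0.141). Mbnl1's 36-base exon was included at 56.2, 61.7 and 61.2% in control libraries, 61.4, 61.02 and 65.1% in those of TAZ4A and 82.4, 50 and 79.7% in those of TAZ-CAMTA1, with TAZ-CAMTA1 replicate 2 below the controls and the other 2 above them, and TAZ-CAMTA1 minus control was 11.01 points (log2 odds 1.39 ± 0.38 SE, edgeR adjusted p = 0.0412). Clk1 in TAZ4A lost its acceptor call without TAZ4A replicate 3 (edgeR adjusted p = 0.0549). Its donor call was lost without Ctrl replicate 1 or 3 or TAZ4A replicate 1, 2 or 3 (edgeR adjusted p from 0.112 to 0.286). Clk1 in TAZ-CAMTA1 lost its call without Ctrl replicate 1 or 3 or TAZ-CAMTA1 replicate 1 (edgeR adjusted p from 0.0711 to 0.0984). Mbnl1 lost its call without Ctrl replicate 1, 2 or 3, TAZ4A replicate 1 or 3 or TAZ-CAMTA1 replicate 1 or 3 (edgeR adjusted p from 0.0583 to 0.179). The levels of these regulators were read from the gene table, with 53 genes tested by limma. Against control, 2 rose (3.77%) and 2 fell (3.77%) in TAZ4A, where 12.9% of all genes rose and 11.3% fell. In TAZ-CAMTA1 2 rose (3.77%) and 17 fell (32.1%), where 16.1% of all genes rose and 14.9% fell. Between the constructs 3 rose (5.66%) and 19 fell (35.8%) in TAZ-CAMTA1, against 18.4 and 18.3% of all genes. Without TAZ-CAMTA1 replicate 2 the rises and falls were 12 and 10, 4 and 27, and 5 and 30, where 27.4, 27.0 and 29.0% of all genes rose, 29.0, 31.5 and 31.4% fell and 56.4, 58.5 and 60.4% were called in either direction.

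The level of the host genes was read beside the shares. Of the genes with a called end, 2 rose and 4 fell of 16, 6 rose and 5 fell of 29, and 6 rose and 6 fell of 22 in the 3 comparisons (37.5, 37.9 and 54.5%, against 21.4, 30.8 and 39.0% of all genes with a shared end). Fn1 was at 1008 ± 107, 573 ± 11.3 and 1229 ± 437 CPM (mean ± SD, n = 3) in control, TAZ4A and TAZ-CAMTA1 cells, so the group with the highest EIIIA share had the lowest level, with a log2 change of -0.81 ± 0.25 SE (limma adjusted p = 0.0481) on the log2(CPM + 0.5) scale for TAZ4A against control. Egfl7 was at 1349 ± 53.7, 778 ± 34.8 and 1338 ± 411 CPM, and TAZ4A against control changed by -0.79 ± 0.18 SE (limma adjusted p = 0.0122). For Pecam1 the levels were 3321 ± 45.4, 2483 ± 26.2 and 3909 ± 561 CPM, with 0.22 ± 0.10 SE (limma adjusted p = 0.135) for TAZ-CAMTA1 against control. Ap1s2 stood at 89.4 ± 6.32, 84.96 ± 3.49 and 62.4 ± 13.9 CPM, with -0.07 ± 0.16 SE (limma adjusted p = 0.802) for TAZ4A against control. Fewer cells of a type and less RNA per cell cannot be told apart in such bulk samples.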

How the data were processed

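Poly-A RNA of 9 MS1 libraries in 3 groups of 3 was sequenced after a stranded preparation, per the labels' protocols. Per the submitters' processing notes, bcl2fastq, FastQC, STAR, featureCounts and edgeR were used on mm10, with versions, settings and the annotation given to STAR not given in the sources used here. For each intron, the junction files deposited by the authors hold a count of unique reads and one of reads with several matches. The gene table is a deposited signal, reads per gene scaled to the library's total, which the authors name CPM. Its values were whole multiples of the value of 1 read (100% within 0.01), giving 22817562 to 35491338 reads per library.

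Groups and replicate numbers came from the sample titles. The members and gene lists were chosen with earlier results of these data known. For each junction at a shared end, its unique counts and those of the end's other members were fitted with edgeR 4.0.16 (R 4.3.3; quasi-likelihood, robust, a term per library, all 9 libraries, 6 residual degrees of freedom). P-values were combined per end by Simes' method and adjusted by Benjamini-Hochberg over 1414 ends, at 0.05. The method was tested on simulated data. The median SE of a log2 odds difference was 0.40 to 0.43. Gene levels were tested with limma 3.58.1 (trend, robust) on log2(CPM + 0.5) for 13346 of 23744 genes with at least 0.5 CPM in 3 libraries, with a median SE of 0.138. The design assumed CPM, and the test stayed as planned.

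Ends named in the text were called, held at least 20 reads in every library and did not overlap between the groups compared. The 10 genes of largest difference per comparison were taken, then up to 2 genes per list, and the ends of Wwtr1, Camta1, Yap1 and Tead1 to Tead4. Others are said to be chosen after their values were seen. For 1 gene that the rule takes, the result is not reported here. Exon positions and sequences came from GENCODE vM21, which held 2450 of the 2490 members. DESeq2 1.42.0, limma, edgeR's diffSpliceDGE, other read minimums, multiply mapped reads, the compared libraries alone, a replicate block and each library left out were tried as alternatives. Unannotated junctions (155756, with 2.26% of reads at the shared ends) were left out, also where the annotation holds them (21080). Wilson intervals are at 95%, and a count of 0 is given a limit of 3 counts.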

Additional observations from a re-analysis of the deposited data

How the results depend on the processing

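The counts of called ends rest on the test and on single libraries. For TAZ4A and then TAZ-CAMTA1 against control, and last for TAZ-CAMTA1 minus TAZ4A, the 22, 34 and 30 calls became 10, 11 and 9 with DESeq2 and 13, 31 and 19 with limma on logit shares, and those of at least 10 points became 7, 9 and 8 with DESeq2. For limma the counts of at least 10 points were 8 and 13 in the first and the third comparison. edgeR's diffSpliceDGE called 2, 0 and 0 with TMM factors and with DESeq2 size factors (1, 0 and 0 of at least 10 points), with 70, 95 and 90 ends at an unadjusted p under 0.05 for TMM and 72, 95 and 90 for size factors. These are 4.95, 6.72 and 6.36% of the 1414 ends for TMM and 5.09, 6.72 and 6.36% for size factors. Ends of at least 20 points numbered 7, 11 and 5. Fitting only the 6 compared libraries gave 50 calls for TAZ4A against control, 31 of at least 10 points. Leaving out 1 library at a time, ends called ranged from 5 to 31, 15 to 38 and 9 to 37, those of at least 10 points from 2 to 22, 11 to 25 and 8 to 28, and named ends still called from 2 to 10, 10 to 14 and 6 to 14. Genes called by limma went from 3225, 4140 and 4890 to 7450, 7728 and 7975 without TAZ-CAMTA1 replicate 2. The cause of these shifts was not tested. None of the 50 comparisons of ends named by the rule changed sign under the settings run for them. Most of these checks could not fail. The difference is taken from the shares, so a replicate block leaves it as it is. For called ends, whose groups did not overlap, leaving out 1 library cannot reverse it.

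With the replicate number as a block, 18, 26 and 21 ends were called, 13, 18 and 16 of at least 10 points, and 46 of the 50 named comparisons kept their side of the threshold. Deviations of same-numbered libraries correlated at -0.083 to 0.103 over 864 ends, and those of differently numbered libraries at -0.126 to 0.148. These values show no pairing by number but cannot exclude one, and the main fit did not pair the libraries. Depth limits the result most at the 550 of 1414 ends where some library has under 20 reads.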
